A study of Mus musculus with 6 samples.

Results

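The genes described here are 48 genes of neuroblast migration, axon guidance and early neuronal differentiation, measured by RNA sequencing in the subventricular zone (SVZ) of the mouse brain. They were taken by name from a list, with no threshold on their values, and all 48 were among the 18614 genes of the deposited table. All 48 also passed the filter on low counts, which kept 15126 genes. The study compared 3 libraries labelled KO with 3 libraries labelled WT. The titles of the KO libraries name Zhx2, which encodes a DNA-binding repressor with homeodomains and zinc fingers, and the protocol writes their genotype as Zhx2Δ/Δ. The WT libraries come from mice that the protocol writes as Zhx2+/+. Neither the animals' age, the way the deletion was made nor any pooling is given in the sources used here, and nothing in the labels says that the libraries come from separate animals. The p-values therefore rest on library-to-library spread alone, part of which may be technical.

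New neurons are born in the SVZ throughout life in rodents. They leave as neuroblasts that crawl along one another in chains, through the rostral migratory stream, to the olfactory bulb, where they become interneurons. The chains rely on a cytoskeleton that is rebuilt continually, on polysialic acid carried by the adhesion molecule NCAM, and on cues read at the leading tip. Slits and ephrins act mainly as repellents, prokineticin 2 attracts, and reelin in the bulb releases cells from the chain.

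Zhx2 itself went against the labels. It had 67.1, 57.8 and 56.3 counts per 1000000 counts of the library (CPM) in KO 1, KO 2 and KO 3, against 39.8, 40.5 and 38.2 CPM in WT 1, WT 2 and WT 3. Every KO-labelled library was above every WT library, and the log2 fold change was 0.61 with a standard error (SE) of 0.10 (edgeR adjusted p = 0.163, DESeq2 adjusted p = 0.00142). The table holds whole transcripts, so counts from parts of the gene that a deletion leaves in place cannot be told apart from the rest. The genotype tags of KO 2 and KO 3 also name ZHX3 and ZHX4, while their titles name ZHX2. The libraries are therefore called KO-labelled throughout, and every direction below is that of the labels.

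Each library held between 17037152 and 17685906 estimated counts. A gene with 3 counts, the floor used here, therefore stood at 0.170 to 0.176 CPM before scaling. The levels given here are scaled between libraries (TMM), which shifts the floor slightly. These limits cover counting error only. The libraries differed in the tissue they contained. The summed level of 15 markers of the choroid plexus, the tissue inside the ventricle that makes cerebrospinal fluid, was 58.3 to 235.5 CPM in the KO-labelled libraries, against 17364.2, 12472.9 and 3697.2 CPM in WT 1, WT 2 and WT 3. All 15 of these markers were lower in every KO-labelled library, and Tmem72 was at 0 counts in 1 of them. The summed level of 10 markers of ependyma, the ciliated lining of the ventricle, was 87.4 to 127.9 CPM in the KO-labelled libraries and 180.8 to 263.8 CPM in the WT libraries. The summed level of 15 markers of striatal projection neurons, which lie beside the SVZ, was 4828.1 to 6185.2 CPM in the KO-labelled libraries and 749.6 to 10747.1 CPM in the WT libraries.

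None of the 48 genes passed the test between the KO-labelled and the WT libraries. With edgeR's quasi-likelihood test and Benjamini-Hochberg adjustment over all genes, 0 of 48 passed an adjusted p of 0.05, against 0.00% of all genes tested. DESeq2 called 0 of the 48 where it called 2.06% of all genes, and limma-voom called 0 of the 48 and 0.00% of all genes. Without WT 3, edgeR called 0.895% of all genes and still 0 of the 48. At an unadjusted p under 0.05 in edgeR, 0 of 48 were higher, against 2.68% of all genes, and 4 of 48 (8.33%) were lower, against 6.39% of all genes. Those 4 were Prox1, Vldlr, Cd24a and Slit2.

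The median log2 fold change of the 48 genes, KO-labelled minus WT, was -0.03, beside 0.02 over all genes tested, and the values ran from -0.90 to 0.39. Values were above 0 for 20 genes (41.7%, against 53.4% of all genes) and below 0 for 28. In 42 of 48 genes (87.5%, against 78.6% of all genes) the difference between groups was smaller than the range within the WT group alone. The KO-labelled libraries lay wholly above the WT libraries in 4 of 48 genes (8.33%, against 8.00% of all genes tested). These were Tubb3, Tubb2b, Gap43 and Elavl3. They lay wholly below in another 4 of 48 (8.33%, against 8.74% of all genes tested), namely Prox1, Vldlr, Cd24a and Btg1. Both shares were close to the background. The markers of choroid plexus and ependyma separated the groups in the same direction as Prox1, Vldlr, Cd24a and Btg1, and the part of those tissues was not tested. Smaller groups separate more easily. Without KO 3 the groups did not overlap in 15 of 48 genes (31.2%, against 31.3% of all genes), and without WT 2 in 19 (39.6%, against 30.6% of all genes).

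**Figure D1:**
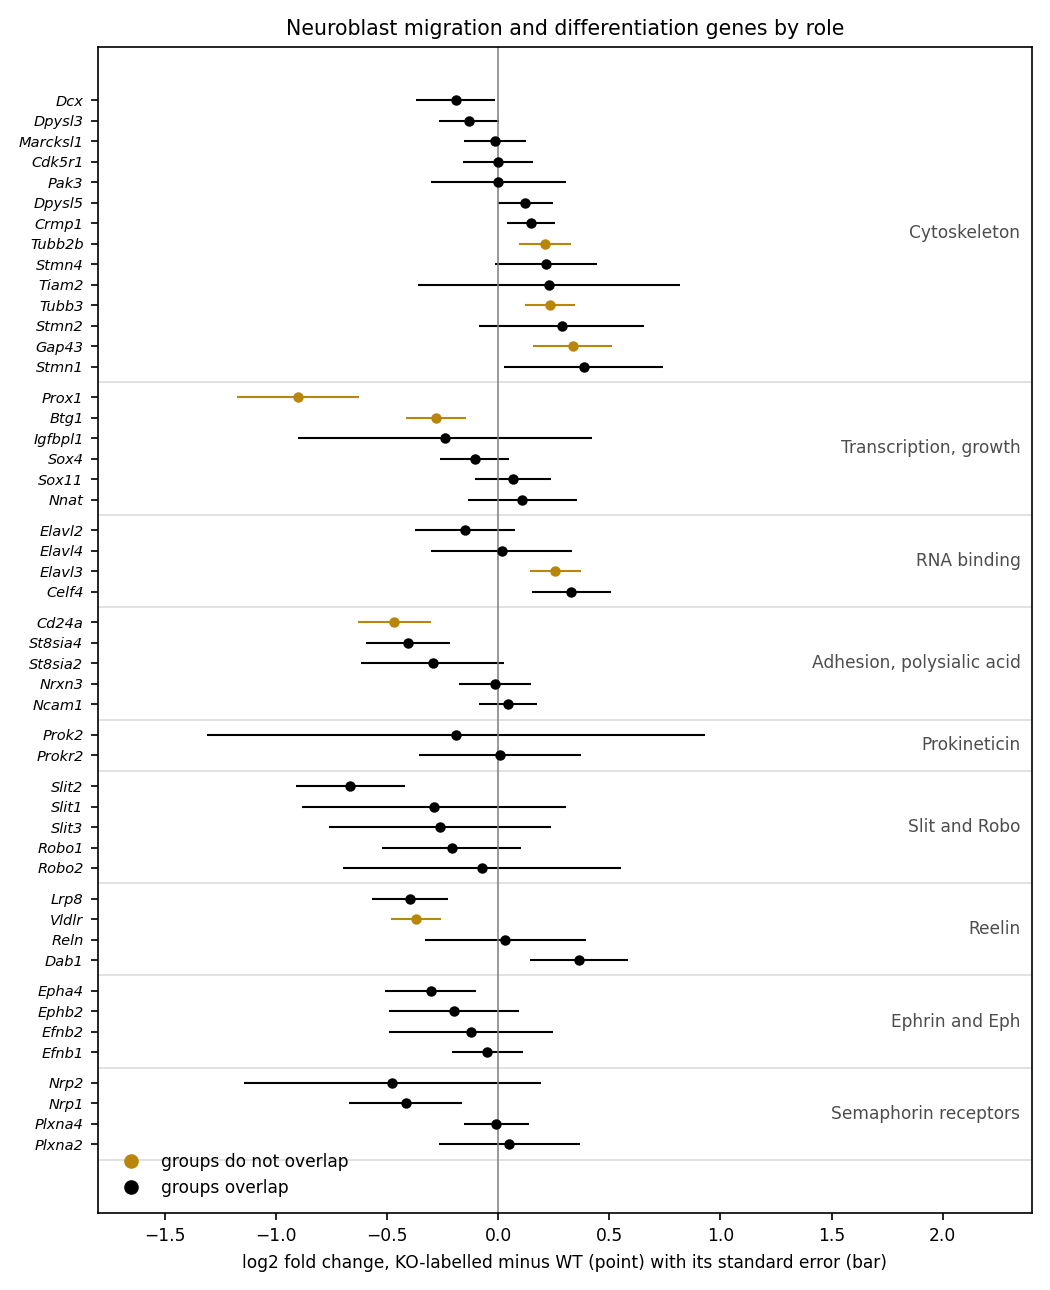
Log2 fold change of each of the 48 genes, KO-labelled minus WT, on the x axis, with genes grouped by role on the y axis. Points are edgeR estimates, bars are 1 standard error to each side, and gold marks the 8 genes whose groups do not overlap. Values run from -0.90 for Prox1 to 0.39 for Stmn1, and all 5 Slit and Robo genes and all 4 ephrin and Eph genes lie below 0.

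The sequences just before the start sites of some of the 8 non-overlapping genes are shown because a pentamer known as the CCAAT box could be searched there. As background, ZHX proteins are known to bind the A subunit of NF-Y, the factor that reads this box. The 250 bases before a start were taken from RefSeq (assembly GRCm38.p6), which gave windows for 35 of the 48 genes and for 5 of the 8. The search was for CCAAT on either strand, so that its reverse complement ATTGG also counts. Capitals mark the match, and each sequence is written 5′ to 3′ on the gene's own strand.
Elavl3, chr9:22052024-22052273, minus strand: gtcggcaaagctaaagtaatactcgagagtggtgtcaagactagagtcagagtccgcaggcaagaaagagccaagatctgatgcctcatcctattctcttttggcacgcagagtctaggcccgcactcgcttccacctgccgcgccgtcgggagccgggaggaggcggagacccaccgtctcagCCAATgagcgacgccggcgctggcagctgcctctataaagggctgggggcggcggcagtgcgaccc
Tubb3, chr8:123411303-123411552, plus strand: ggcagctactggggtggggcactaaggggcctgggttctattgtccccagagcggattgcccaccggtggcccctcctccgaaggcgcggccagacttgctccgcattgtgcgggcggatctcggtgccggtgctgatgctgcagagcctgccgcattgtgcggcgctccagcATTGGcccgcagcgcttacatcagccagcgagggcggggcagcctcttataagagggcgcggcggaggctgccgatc
Btg1, chr10:96616751-96617000, plus strand: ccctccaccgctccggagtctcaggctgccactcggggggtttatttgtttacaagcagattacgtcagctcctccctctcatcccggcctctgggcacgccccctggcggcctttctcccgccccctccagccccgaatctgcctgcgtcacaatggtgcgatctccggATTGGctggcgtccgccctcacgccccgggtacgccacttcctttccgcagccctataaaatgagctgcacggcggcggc
Vldlr, first listed start, chr19:27216234-27216483, plus strand: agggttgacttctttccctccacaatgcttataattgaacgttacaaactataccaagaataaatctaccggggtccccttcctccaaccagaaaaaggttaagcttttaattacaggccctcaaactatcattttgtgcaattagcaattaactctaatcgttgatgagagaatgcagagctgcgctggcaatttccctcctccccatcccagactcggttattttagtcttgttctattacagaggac

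In Elavl3 and Tubb3, which were higher in every KO-labelled library, the match began 66 and 77 bases before the start. Btg1, lower in every KO-labelled library, held a match 80 bases before its start. The first Vldlr window held none, while the window of its second listed start (chr19:27216770-27217019, not printed) held one 78 bases before that start. Both Prox1 windows held none. The pentamer stood in 25 of the 58 windows of the listed genes (43.1%), against 33.85% of the 32851 windows of all genes. A match is a string of letters in these windows and not a measured binding site.

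Genes of the microtubule and growth cone machinery mostly had values above 0. Of 14 such genes, 0 passed the test, 10 were above 0 and 4 below, and their median log2 fold change was 0.18. In 3 of the 14, namely Tubb3, Tubb2b and Gap43, the KO-labelled libraries lay wholly above WT, as they did in 8.00% of all genes tested.

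Tubb3 encodes class III β-tubulin, the tubulin of young neurons and a common marker of them. It had 322.3, 318.4 and 360.4 CPM in KO 1 to KO 3, against 292.0, 260.2 and 299.6 CPM in WT 1 to WT 3. The lowest KO-labelled library, KO 2, was above the highest WT library, WT 3. The means were 334 ± 23.2 CPM in KO-labelled and 284 ± 20.9 CPM in WT libraries (SD, n = 3 each), with a log2 fold change of 0.23 (SE 0.11, edgeR adjusted p = 0.595).

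Tubb2b encodes a β-tubulin needed for neuronal migration in the developing cortex. It had 139.2, 139.3 and 143.4 CPM in the KO-labelled libraries and 105.0, 123.0 and 136.6 CPM in WT 1 to WT 3. The KO-labelled libraries lay close together and above a wide WT group, and WT 3 came close to the lowest of them. The log2 fold change was 0.21 (SE 0.12, edgeR adjusted p = 0.648). Without TMM, scaled by library total alone, its main listed transcript had 135.4 CPM in KO 1 and 137.1 CPM in WT 3. On that scale the groups overlapped. Tubb2b has a near-identical copy, Tubb2a, and how the counting split their reads is not given in the sources used here.

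Gap43 encodes a growth cone protein that rises as axons extend. It had 273.9, 262.9 and 312.8 CPM in the KO-labelled libraries and 251.1, 170.0 and 251.9 CPM in WT 1 to WT 3. The groups did not overlap, although WT 1 and WT 3 lay just under KO 2, and WT 2 was far below every other library. The log2 fold change was 0.34 (SE 0.18, edgeR adjusted p = 0.627).

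Dcx encodes doublecortin, the microtubule-binding protein by which migrating neuroblasts are usually recognised. It had 34.4, 30.4 and 47.0 CPM in KO 1 to KO 3, against 40.4, 40.0 and 47.2 CPM in WT 1 to WT 3. The groups overlapped, with KO 3 and WT 3 nearly equal at the top. The log2 fold change was -0.19 (SE 0.18, edgeR adjusted p = 0.780).

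The stathmins, which bind free tubulin, spread differently. Stmn1 had 548.3, 290.8 and 234.6 CPM in KO 1 to KO 3, against 254.0, 209.6 and 358.7 CPM in WT 1 to WT 3. Stmn4 had 206.6, 144.3 and 114.8 CPM in KO 1 to KO 3, against 112.9, 147.6 and 140.7 CPM in the WT libraries. In both genes KO 1 was the highest of all 6 libraries and the groups overlapped. KO 1 also held the highest summed level of 7 oligodendrocyte markers, 18696.6 CPM, beside 11116.0 and 8092.8 CPM in KO 2 and KO 3 and 13291.9 to 13534.8 CPM in the WT libraries. The 8 markers of cortical excitatory neurons summed to 1267.1, 263.0 and 99.3 CPM in KO 1 to KO 3, against 146.6, 95.9 and 669.2 CPM in WT 1 to WT 3. This is the order of all 6 libraries in Stmn1, but not in Stmn4. The part of either cell type in the stathmin values was not tested. In bulk tissue, fewer cells of a type and less RNA per cell cannot be told apart.

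The other genes of this group had log2 fold changes between -0.13 and 0.29, and their groups overlapped. Among them Dpysl3, Dpysl5 and Crmp1, which carry semaphorin signals to microtubules, stood at -0.13, 0.12 and 0.15. Cdk5r1, the activator of the migration kinase CDK5, and Pak3, a kinase of the actin skeleton, both stood at 0.00. Marcksl1, which binds actin at the membrane, stood at -0.01, Stmn2 at 0.29, and Tiam2, an activator of the GTPase RAC, at 0.23. Crmp1 overlaps Evc in the annotation and Tiam2 overlaps Tfb1m. Whether counting used strand is not given in the sources used here.

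The RNA-binding proteins that mark newly postmitotic neurons were 4 in number, of which 0 passed the test and 3 were above 0, with a median log2 fold change of 0.14. Elavl3 encodes the neuronal protein HuC, which binds AU-rich transcripts. It had 441.4, 409.6 and 398.4 CPM in the KO-labelled libraries and 320.9, 337.9 and 386.0 CPM in WT 1 to WT 3. The groups did not overlap, with WT 3 just under KO 3. The means were 417 ± 22.3 CPM in KO-labelled and 348 ± 33.8 CPM in WT libraries (SD, n = 3 each), with a log2 fold change of 0.26 (SE 0.12, edgeR adjusted p = 0.577).

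Celf4, a regulator of splicing and mRNA stability in neurons, had 717.4, 558.8 and 663.7 CPM in the KO-labelled libraries and 451.1, 455.6 and 637.0 CPM in the WT libraries. WT 3 lay inside the KO-labelled range while WT 1 and WT 2 lay below it (log2 fold change 0.33, SE 0.18, edgeR adjusted p = 0.638). Elavl4, which encodes HuD, had 77.8, 60.5 and 84.9 CPM in the KO-labelled libraries and 93.2, 40.7 and 86.7 CPM in the WT libraries. Here WT 1 and WT 2 were the extremes of all 6 libraries, and the log2 fold change was 0.02 (SE 0.32, edgeR adjusted p = 0.992). Elavl2, which encodes HuB, stood at -0.15.

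The tubulins, Gap43 and Elavl3 are also made by mature neurons, and markers of mature neurons had fold changes in the same direction. The summed level of 8 such markers was 8107.1, 7445.8 and 7067.7 CPM in KO 1 to KO 3, against 5797.9, 5607.2 and 7640.5 CPM in WT 1 to WT 3. Each of the 8 had a log2 fold change above 0, and their median was 0.25, close to the values of the 4 genes above. Unlike in those genes, WT 3 lay within the KO-labelled range of the sum, and the groups overlapped in 7 of the 8 markers. This direction was not particular to neurons. All 10 microglia markers were above 0 (median log2 fold change 0.29), as were 6 of 8 markers of astrocytes and neural stem cells (median 0.21). By contrast, 6 of 7 oligodendrocyte markers and 3 of 5 endothelial markers were below 0 (medians -0.07 and -0.05). The part of any of these cell types in Tubb3, Tubb2b, Gap43 and Elavl3 was not tested.

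**Figure D2:**
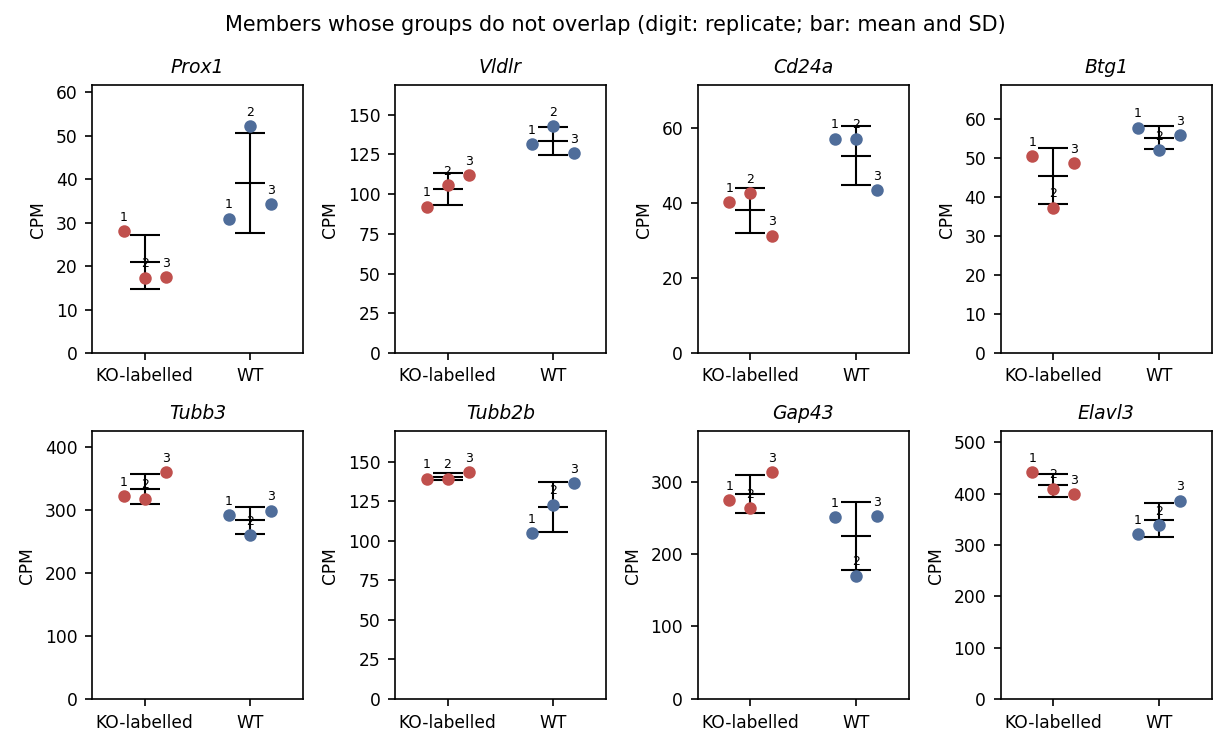
CPM on the y axis, from 0, in the 3 KO-labelled libraries (left) and the 3 WT libraries (right) for the 8 genes whose groups do not overlap. Points are libraries with their replicate number, and bars give the mean and SD; Prox1 has the means furthest apart as a ratio, 20.9 CPM in KO-labelled against 39.2 CPM in WT libraries, and Tubb2b the smallest spread in the KO-labelled libraries.

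Among the 6 genes of transcription and growth control, 0 passed the test, 2 were above 0 and 4 below, with a median log2 fold change of -0.17. Prox1, a homeobox factor that drives cells out of the cell cycle towards neuronal fates, had the lowest log2 fold change of all 48 genes. It had 28.0, 17.3 and 17.5 CPM in KO 1 to KO 3, against 31.0, 52.2 and 34.3 CPM in WT 1 to WT 3. KO 1 was near WT 1, while KO 2 and KO 3 were near each other and well below every WT library. The means were 20.9 ± 6.15 CPM in KO-labelled and 39.2 ± 11.4 CPM in WT libraries (SD, n = 3 each), with a log2 fold change of -0.90 (SE 0.27, edgeR adjusted p = 0.406). With DESeq2 the adjusted p was 0.0874, the lowest of the 48 genes. Without KO 1, the KO-labelled library nearest to WT, DESeq2 called Prox1 (adjusted p = 0.00573), where it called 1.79% of all genes. In the same libraries edgeR did not call it (adjusted p = 0.450).

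Btg1, an antiproliferative gene of quiescent cells, had 50.5, 37.3 and 48.7 CPM in the KO-labelled libraries and 57.9, 52.0 and 55.9 CPM in the WT libraries. The groups did not overlap, but KO 1 came close to WT 2 (log2 fold change -0.28, SE 0.14, edgeR adjusted p = 0.599). Sox11, a factor that switches on neuronal genes in neuroblasts, had 33.9, 26.2 and 40.8 CPM in the KO-labelled libraries and 29.5, 33.7 and 33.2 CPM in the WT libraries. The WT libraries all fell inside the KO-labelled range (log2 fold change 0.07, SE 0.17, edgeR adjusted p = 0.931). Its relative Sox4 stood at -0.11.

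Igfbpl1, which in mouse brain is largely a gene of progenitors and newborn neurons, had 7.19, 22.6 and 14.7 CPM in KO 1 to KO 3, against 33.4, 6.30 and 12.7 CPM in WT 1 to WT 3. The WT libraries alone spanned 5.30-fold, and the log2 fold change was -0.24 (SE 0.66, edgeR adjusted p = 0.938). Igfbpl1 overlaps Stra6l in the annotation. Nnat, an imprinted gene of developing neurons that overlaps Blcap, had a log2 fold change of 0.11.

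The adhesion genes lay mostly below 0. Of 5, 0 passed the test, 4 were below 0 and 1 above, with a median log2 fold change of -0.29. Cd24a encodes a small sialoglycoprotein used to sort SVZ neuroblasts. It had 40.4, 42.7 and 31.4 CPM in KO 1 to KO 3, against 57.2, 57.3 and 43.6 CPM in WT 1 to WT 3. The groups did not overlap, but WT 3 was only just above KO 2, and under upper quartile scaling they did overlap. The means were 38.1 ± 5.98 CPM in KO-labelled and 52.7 ± 7.91 CPM in WT libraries (SD, n = 3 each), with a log2 fold change of -0.47 (SE 0.17, edgeR adjusted p = 0.482).

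Cd24a is also made by ependymal cells, whose markers were lower in the KO-labelled libraries. All 10 ependymal markers were below 0 (median log2 fold change -1.01), and in 8 of them the groups did not overlap. KO 3 and WT 3 were the lowest of their groups both in Cd24a and in the summed ependymal markers. The other libraries did not keep 1 order: KO 2 was above KO 1 in Cd24a but below it in the markers, with 112.2 and 127.9 CPM, and WT 1 and WT 2 were nearly equal in Cd24a but had 263.8 and 194.6 CPM of the markers. The part of ependyma in the Cd24a value was not tested.

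St8sia2 and St8sia4 encode the enzymes that build polysialic acid on NCAM. St8sia4 had 12.2, 13.4 and 18.0 CPM in the KO-labelled libraries and 22.6, 17.1 and 18.0 CPM in the WT libraries. KO 3 lay between WT 2 and WT 3, so the groups overlapped (log2 fold change -0.41, SE 0.19, edgeR adjusted p = 0.585). St8sia2 had 18.4, 21.1 and 23.6 CPM in the KO-labelled libraries and 16.5, 39.6 and 21.4 CPM in the WT libraries. Its value of -0.29 (SE 0.32, edgeR adjusted p = 0.813) rested on WT 2, and without a WT or KO-labelled library it ran between -0.53 and 0.14. Their substrate Ncam1 stood at 0.04, with 390.5 to 462.8 CPM in the KO-labelled libraries and 357.7 to 440.9 CPM in the WT libraries. Nrxn3, a synaptic adhesion protein, stood at -0.01.

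Ligands and receptors of the guidance pathways mostly had values below 0, and 0 of them passed the test. The 5 Slit and Robo genes were all below 0, with a median log2 fold change of -0.26. Slits are secreted repellents, made in part by the septum and choroid plexus, and ROBO receptors read them. Neuroblasts themselves also make Slit1.

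Slit2 had 27.8, 21.7 and 30.3 CPM in KO 1 to KO 3, against 55.9, 29.9 and 40.7 CPM in WT 1 to WT 3. WT 1 was the highest library and KO 3 was slightly above WT 2, so the groups overlapped. The log2 fold change was -0.67 (SE 0.25, edgeR adjusted p = 0.498). The order of WT 1, WT 2 and WT 3 was not the same as for the choroid plexus markers, in which WT 3 was the lowest of the WT group, and the part of that tissue in Slit2 was not tested. Without WT 2, DESeq2 called Slit1, Slit2 and Lrp8, with Slit2 at the lowest adjusted p of 0.0205, where it called 2.27% of all genes. WT 2 was the lowest WT library in each of these genes. In the same libraries edgeR called none of them, with Slit2 at an adjusted p of 0.297.

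Slit1 had 70.9, 84.1 and 74.7 CPM in KO 1 to KO 3, against 154.4, 23.0 and 103.1 CPM in WT 1 to WT 3. The KO-labelled libraries lay close together in the middle of a WT range of 6.72-fold (log2 fold change -0.29, SE 0.60, edgeR adjusted p = 0.909). Slit3 had 17.4, 18.8 and 21.9 CPM in the KO-labelled libraries and 8.66, 40.3 and 20.7 CPM in the WT libraries, so that WT 1 and WT 2 stood in the opposite order to Slit1.

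Robo1 had 38.2, 40.6 and 78.5 CPM in the KO-labelled libraries and 46.3, 69.1 and 66.3 CPM in the WT libraries. Its highest library was KO 3 and its lowest KO 1 (log2 fold change -0.21, SE 0.31, edgeR adjusted p = 0.867). Robo2 had 59.5, 63.5 and 81.6 CPM in the KO-labelled libraries and 19.0, 136.3 and 60.1 CPM in the WT libraries, a WT range of 7.17-fold around the KO-labelled group. Its log2 fold change was -0.07.

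In the reelin pathway both receptors were below 0 while the ligand and the adaptor were above it. Reln, the secreted ligand, had 50.8, 90.1 and 98.7 CPM in KO 1 to KO 3, against 58.7, 117.3 and 58.4 CPM in WT 1 to WT 3. The groups overlapped widely (log2 fold change 0.03, SE 0.36, edgeR adjusted p = 0.987). Vldlr, one of its receptors, had 92.0, 105.7 and 111.9 CPM in the KO-labelled libraries and 131.5, 142.8 and 125.7 CPM in the WT libraries.

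All 3 KO-labelled libraries were below all 3 WT libraries in Vldlr, and both groups were tight. The means were 103 ± 10.2 CPM in KO-labelled and 133 ± 8.74 CPM in WT libraries (SD, n = 3 each), with a log2 fold change of -0.37 (SE 0.11, edgeR adjusted p = 0.402, the lowest of the 48 genes with edgeR). Lrp8, the other receptor, had 69.5, 60.8 and 72.0 CPM in the KO-labelled libraries and 106.0, 68.7 and 92.0 CPM in the WT libraries. WT 2 lay inside the KO-labelled range (log2 fold change -0.40, SE 0.17, edgeR adjusted p = 0.555).

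Dab1, the adaptor that both receptors engage inside the cell, had 95.5, 67.0 and 84.1 CPM in the KO-labelled libraries and 46.2, 67.2 and 78.4 CPM in the WT libraries. KO 1 was the highest library and WT 1 the lowest, and the rest overlapped (log2 fold change 0.36, SE 0.22, edgeR adjusted p = 0.668).

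The deposited table splits each gene over RefSeq transcripts, and the split of Vldlr (chromosome 19, 27216480 to 27254231, mm10) differed between the groups. A transcript of 8029 bases had 60.7, 0 and 0 estimated counts in KO 1 to KO 3, against 490, 475 and 354 in WT 1 to WT 3. One of 8304 bases had 375, 424 and 385 estimated counts in the KO-labelled libraries and 718, 563 and 665 in the WT libraries. The most abundant one, of 7613 bases, had 1127, 1411 and 1296 estimated counts in the KO-labelled libraries and 1222, 1157 and 1148 in the WT libraries. The first 2 were lower in every KO-labelled library, while in the last the groups overlapped.

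These splits are a description, since transcript estimates were unstable in other genes. A transcript of Dcx of 9080 bases, for instance, stood at 0 in all KO-labelled libraries and in WT 1 and at 241 and 541 estimated counts in WT 2 and WT 3. Elavl3, higher as a whole gene, was split as well. In a transcript of it the KO-labelled libraries lay wholly below WT (log2 ratio of the group means -1.68). In other Elavl3 transcripts they lay wholly above, at log2 ratios of 0.48 and 0.52. Among the 48 genes, 160 transcripts had a mean of at least 100 counts. They were compared on CPM scaled by library total alone, without TMM. The KO-labelled libraries lay wholly above WT in 9 of the 160, against 7.18% of all such transcripts. They lay wholly below in 15 of the 160, against 8.16% of all such transcripts. A further transcript of Vldlr, of 8122 bases, stood at 225 estimated counts in KO 3 and 179 in WT 2 and at 0 elsewhere.

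**Figure D3:**
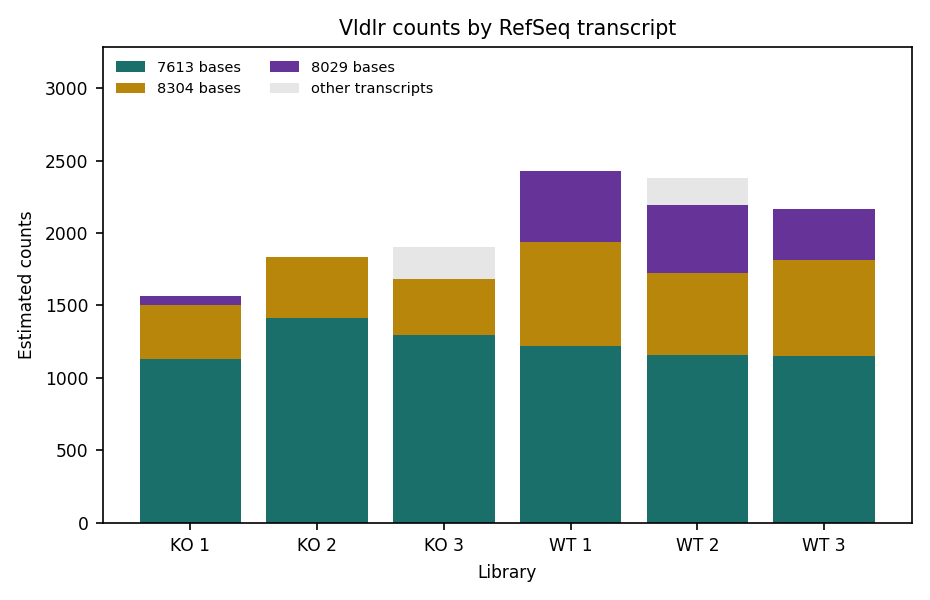
Estimated counts of Vldlr on the y axis, split by RefSeq transcript and stacked, in the 3 KO-labelled libraries and then the 3 WT libraries. The transcript of 8029 bases holds 60.7 counts or fewer in each KO-labelled library and 354 or more in each WT library, while the groups overlap in the transcript of 7613 bases.

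The 4 ephrin and Eph genes were all below 0 (median log2 fold change -0.16), and 0 passed the test. Epha4, a receptor that neuroblasts and the astrocytes around them carry, had 110.7, 113.7 and 146.3 CPM in the KO-labelled libraries and 128.6, 197.6 and 131.3 CPM in the WT libraries. KO 3 lay above WT 1 and WT 3, and WT 2 was the highest (log2 fold change -0.30, SE 0.21, edgeR adjusted p = 0.701). Ephb2, Efnb1 and Efnb2 had log2 fold changes of -0.20, -0.05 and -0.12.

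Of the 4 semaphorin receptors, 3 were below 0 and 1 above, with a median log2 fold change of -0.21. Neuropilin 1 (Nrp1), which binds class 3 semaphorins and VEGF, had 33.9, 33.4 and 40.9 CPM in the KO-labelled libraries and 64.5, 31.6 and 48.1 CPM in the WT libraries. WT 2 was below and WT 1 and WT 3 above the whole KO-labelled group (log2 fold change -0.42, SE 0.25, edgeR adjusted p = 0.670). Nrp2 had 38.8, 46.8 and 80.2 CPM in the KO-labelled libraries and 123.6, 16.9 and 89.9 CPM in the WT libraries, in the same order within WT (log2 fold change -0.48). The plexins that pair with neuropilins, Plxna2 and Plxna4, stood at 0.05 and -0.01.

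The prokineticin pair had the lowest CPM of the 48 genes. Prokr2, the receptor that migrating neuroblasts need to reach the bulb, had 5.18, 9.45 and 10.8 CPM in the KO-labelled libraries and 12.2, 7.02 and 6.03 CPM in the WT libraries. The groups overlapped fully (log2 fold change 0.01, SE 0.36, edgeR adjusted p = 0.996). Prok2, its ligand, had 1.12, 0.346 and 3.52 CPM in the KO-labelled libraries and 0.920, 0.240 and 4.53 CPM in the WT libraries. KO 2 and WT 2 were near the floor, and KO 3 and WT 3 were the highest of their groups.

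**Figure D4:**
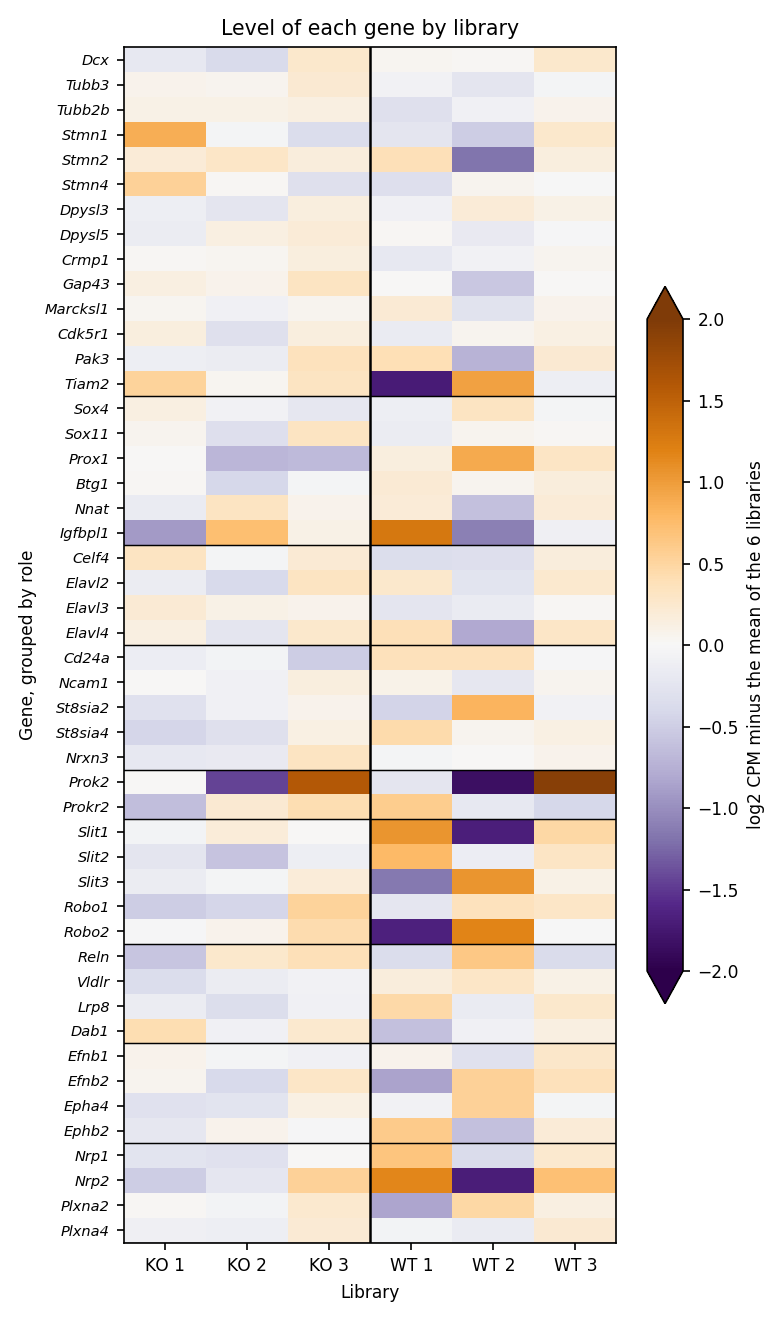
Level of each of the 48 genes (y axis, grouped by role) in each library (x axis, KO-labelled left of WT), as log2 CPM minus the gene's mean over the 6 libraries, with colour running from purple (below) to orange (above). WT 1 and WT 2 take opposite colours in Slit1, Nrp2, Robo2, Slit3 and Tiam2, and Prok2, the least abundant gene, varies most across the libraries of both groups.

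The widest spread in these genes was inside the WT group. The highest WT library was more than 2-fold above the lowest in 17 of 48 genes, against 14.8% of all genes tested. In the KO-labelled group this held for 6 of 48, against 8.84% of all genes tested. In both groups the share among the 48 genes was above that of all genes. WT 1 or WT 2 was the highest of the 6 libraries in 14 and 13 genes and the lowest in 12 and 18. In 15 genes these 2 libraries were both extremes at once.

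The genes that separated WT 1 and WT 2 went in both directions. The log2 difference, WT 1 minus WT 2, was 2.86 for Nrp2, 2.74 for Slit1, 2.39 for Igfbpl1, 1.59 for Prok2 and 1.56 for Stmn2. It was -2.84 for Robo2, -2.67 for Tiam2, -2.21 for Slit3 and -1.39 for Efnb2. Across the 15 striatal projection neuron markers the median of the same difference was -3.80. Their summed level was 749.6 CPM in WT 1, 10747.1 CPM in WT 2 and 2997.5 CPM in WT 3. WT 3 was also between WT 1 and WT 2 in Nrp2, Slit1, Igfbpl1, Robo2, Tiam2 and Slit3. These genes were picked for a wide gap between WT 1 and WT 2. That choice by itself makes a middle place for WT 3 likely. In Prok2, WT 3 was the highest of the WT libraries, at 4.53 CPM. Markers of cortical excitatory neurons, 8 in number, followed another order, with 1267.1, 263.0 and 99.3 summed CPM in KO 1 to KO 3, against 146.6, 95.9 and 669.2 in WT 1 to WT 3. The part of striatal or cortical tissue in these values was not tested.

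**Figure D5:**
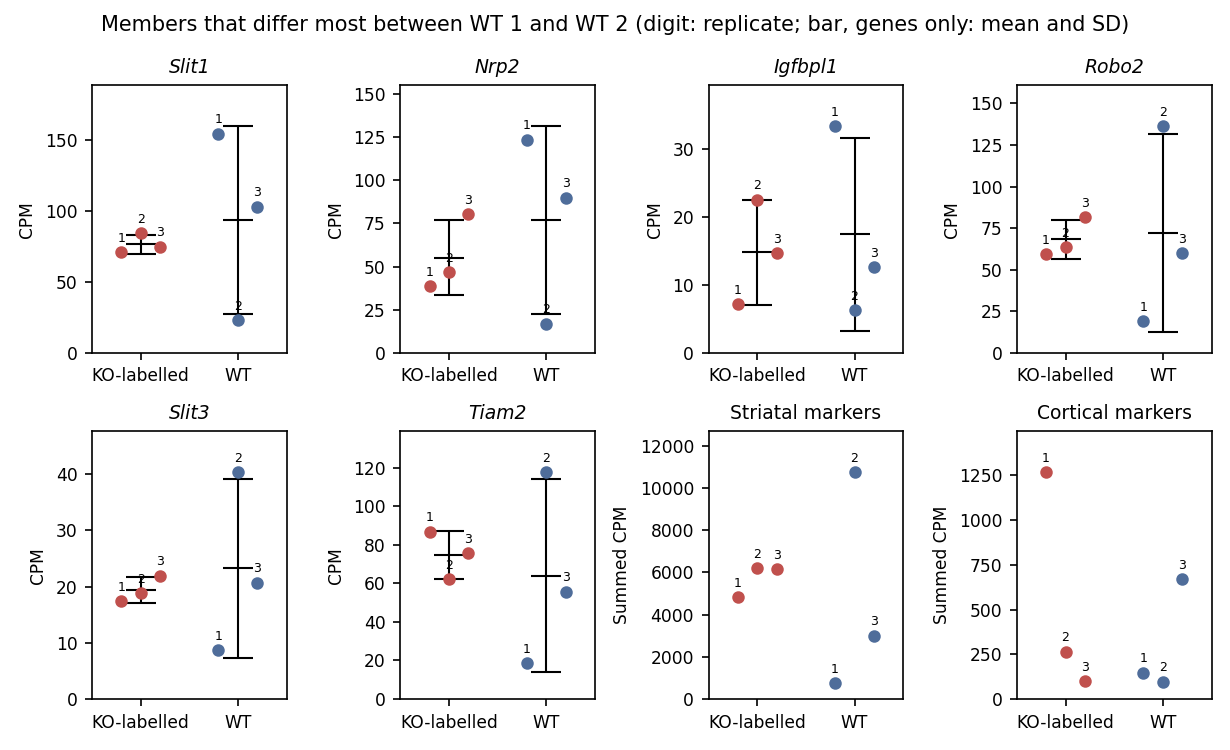
CPM on the y axis, from 0, in the KO-labelled (left) and WT (right) libraries for 6 genes that differ most between WT 1 and WT 2, with the summed CPM of the striatal and cortical marker lists. Points are libraries with their replicate number and bars the mean and SD. In each of the 6 genes WT 1 and WT 2 lie on opposite sides of WT 3, which the choice of genes makes likely.

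Compared per length, as fragments per kilobase per 1000000 fragments (FPKM), the 48 genes covered a wide range of levels. The highest means over all 6 libraries were 306 FPKM for Nnat, 303 for Stmn1, 196 for Gap43, 180 for Tubb3 and 141 for Celf4. The lowest were 1.27 FPKM for Prok2, 1.62 for Ephb2, 1.83 for Prokr2, 3.17 for St8sia4 and 3.55 for Slit2. Dcx, the gene most specific to neuroblasts in this list, averaged 4.39 FPKM and ranked 39 of 48. Snap25, a synaptic gene of mature neurons, stood between 656 and 830 FPKM in the KO-labelled libraries and between 568 and 760 FPKM in the WT libraries. The levels given here are therefore those of the whole tissue, mature neurons included.

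None of the further genes of these pathways passed the test either. Of 24 further neuroblast genes, 22 were tested and 0 passed, with a median log2 fold change of 0.03. At an unadjusted p under 0.05, 0 were higher and 1 was lower. That one was Eomes, a factor of glutamatergic progenitors, with 0.295, 0.576 and 0.998 CPM in KO 1 to KO 3, against 38.0, 0.180 and 15.8 CPM in WT 1 to WT 3. WT 2 was the lowest of all 6 libraries, so the groups overlapped (log2 fold change -4.84, SE 1.51, edgeR adjusted p = 0.425). Cxcr4, a chemokine receptor, stood at -0.65 and Stmn3, another stathmin, at 0.30.

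Of 41 further guidance and migration genes, all were tested and 0 passed, with a median log2 fold change of -0.02. At an unadjusted p under 0.05, 1 was higher and 3 were lower. Plxnb2, a receptor for class 4 semaphorins, averaged 96.4 ± 16.0 CPM in the KO-labelled libraries and 151 ± 32.1 CPM in the WT libraries (SD, n = 3 each), a log2 fold change of -0.65 (SE 0.20, edgeR adjusted p = 0.394). Efna3, an ephrin ligand, averaged 55.0 ± 4.32 CPM in the KO-labelled libraries and 42.5 ± 4.03 CPM in the WT libraries (SD, n = 3 each; log2 fold change 0.37, SE 0.11, edgeR adjusted p = 0.398). Cdk5rap2 and Epha3 stood at -0.38 and -1.40 and Unc5a, a netrin receptor, at 0.44.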

How the data were processed

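RNA was extracted from the SVZ with a Direct-zol kit and sequenced as paired-end 50 bp reads on an Illumina HiSeq instrument, per the labels' protocols. The deposited table holds, per the file headers, estimated counts and FPKM for each of 61481 RefSeq transcripts. The deposited FPKM values equal those counts divided by transcript length and a library factor, and served here only to compare levels between genes. The submitters' processing notes name mm10 as the build and limma 3.40.6 as a tool. Which aligner and quantifier were used, and whether strand was, is not given in the sources used here.

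For each NCBI gene number the transcripts' estimated counts were added and rounded, which gave 18614 genes. RefSeq symbols (assembly GRCm38.p6) named 18489 of them, and 125 unnamed genes held 0.104% to 0.140% of a library's counts. Groups came from the titles. All library pairs within a group differed by more than sampling noise (chi-square per degree of freedom 21.1 to 99.3).

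The main test was the two-sided quasi-likelihood F test of edgeR 4.0.16 under R 4.3.3, with TMM scaling, filterByExpr at its minimum count of 10, robust fitting and no term but group. P-values were adjusted by Benjamini-Hochberg over 15126 genes and held against 0.05. Levels of genes are TMM-scaled CPM, while transcripts were compared on CPM scaled by library total alone. Fold changes are KO-labelled minus WT, and each SE is the size of the fold change over the square root of F. With 3 against 3 libraries an exact permutation test cannot go below 0.1, so none was run. The procedure was tested on simulated counts. The replicate numbers were not used as pairs in the main test.

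The 48 genes, the role groups, the marker lists and the tests were chosen with earlier results of these data known. Full values were given for the 6 genes with the smallest p in each direction and for set anchor genes of each role. Other genes were given by range, by their values where they partner another, or, for the stathmins, Btg1, Nnat and Sox4, by choice after their values were seen. Of the further pathway genes, the smallest p values in each direction were named, apart from 1 result not reported here. Alternatives were DESeq2 1.42.0, limma-voom (limma 3.58.1), other scalings and filters, a replicate block, a striatal marker covariate, KO 1 alone, and each library left out.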

Additional observations from a re-analysis of the deposited data

How the results depend on the processing

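No gene of the 48 passed the threshold under edgeR or limma-voom in any setting tried. With DESeq2, added after seeing the data for each library left out, 1 passed without KO 1 (Prox1) and 3 passed without WT 2 (Slit1, Slit2 and Lrp8), a range of 0 to 3. The median log2 fold change was -0.16 with KO 1 alone against WT and lay between -0.193 and 0.012 when a library was left out, lowest without KO 3. Genes whose groups do not overlap numbered 8 (16.7%, against 16.7% of all genes). They numbered 7 under upper quartile scaling, where Cd24a overlapped (14.6%, against 16.0%), and 23 with KO 1 alone (47.9%, against 54.1%). With a library left out they numbered 9 to 19, 18.8% to 39.6%, against 22.9% to 31.3% of all genes. With the replicate number as a block the median was -0.004 and 0 genes passed. Over all genes kept, same-numbered deviations from the group means correlated at -0.16, -0.07 and -0.04. Over the 48 genes, however, the mean log2 CPM was 6.03, 5.97 and 6.24 in KO 1 to KO 3, beside 6.08, 5.97 and 6.24 in WT 1 to WT 3. With 3 libraries in each group, these values cannot decide whether the numbers pair the libraries.

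Signs turned in at least 1 setting for 29 of the 48 genes. Of these, 7 were among the 24 genes set by rule for full values (Zhx2 included). Igfbpl1 stood at 0.71 with the striatal covariate. Slit1 stood at 0.67 with that covariate, 0.094 with limma-voom and 0.038 with the block. Reln stood at -0.19 with the covariate and -0.62 with KO 1 alone. Prokr2 stood at -0.006 with DESeq2 or with its size factors, at -0.001 with limma-voom, at -0.004 with upper quartile scaling and at -0.70 with KO 1 alone. With a library left out, Sox11 ran between -0.10 and 0.22, St8sia2 between -0.53 and 0.14, Igfbpl1 between -0.68 and 0.64, Prokr2 between -0.20 and 0.37, Slit1 between -0.76 and 0.28, Reln between -0.15 and 0.44, and Elavl4 between -0.29 and 0.22. The cause was not tested. The other 19 of the 48 genes kept their sign throughout. Prox1 was among these 19 and ran between -1.17 and -0.48 over 15 settings.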
